A study of Mus musculus with 59 samples.

Results

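Acetylation of histone H3 (H3K27ac) was compared between brainstem tumours of mice that carried a K27M allele of the histone gene H3f3a and tumours of mice that carried the tagged wild-type histone instead. All samples labelled as H3K27ac chromatin immunoprecipitation of brainstem tumours were taken, which gave 11 of the 59 samples of the series: 6 tumours of the K27M-Tag genotype, numbered 1 to 6, and 5 of the WT-Tag genotype, numbered 7 to 11. The full genotype of the K27M tumours was Nestin-creERT2 with H3f3aLSL-K27M-Tag/+, LSL-PDGFRαV544ins and Trp53flox/flox. That of the WT tumours had H3f3aLSL-WT-Tag/+ in place of the K27M allele and was otherwise the same, so the mutant PDGFRα and the loss of Trp53 were common to both groups and no untransformed brainstem entered the comparison. The Cre recombinase is under Nestin control, which places recombination in cells with Nestin promoter activity, and only 1 of the alleles of H3f3a was altered. The labels gave neither the age of the mice nor the share of tumour cells in each snap-frozen piece, so host cells in the tissue could not be told apart from tumour cells.

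H3K27ac is laid down on nucleosomes of active promoters and enhancers by acetyltransferases, and H3K4me3 is the usual companion mark of promoters. In the K27M protein a methionine takes the place of that lysine, so the altered histone itself can be neither acetylated nor methylated there, and it is best known for inhibiting the Polycomb methyltransferase that deposits H3K27me3. Broad peaks and runs of neighbouring peaks are used in the field to find strongly active genes and enhancer clusters.

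The data were lists of peaks, each a stretch of genome in which the authors' peak caller found more reads than in its control, with a -log10 q-value for the strength of the evidence. They were called in each tumour on its own, with -log10 q of at least 2. Only autosomes were used, because the sexes were unevenly spread: K27M tumours 1 to 4 were labelled male, 5 and 6 female, WT tumour 9 male and the other 4 WT tumours female. The lists of K27M tumours 1 to 4 held 3 or 4 peaks on chromosome Y, whereas the list of WT tumour 9, also labelled male, held 0, like those of the female tumours. Values computed within sex rest on the labels as given. The lists held 35530 to 60274 autosomal peaks, and the sequencing depth behind them is not given in the sources used here. A longer list can come from deeper sequencing, so lists were also compared at equal length, using the strongest 35530 peaks of each, the size of the shortest list. K27M tumour 3 and WT tumour 10 stood furthest from the rest, sharing on average 49.3% and 49.6% of their peak bases with the other tumours by the Jaccard index, against 50.4% to 55.6% for the other 9.

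The size and shape of the H3K27ac lists overlapped between genotypes. K27M lists ranged from 35530 to 60274 autosomal peaks with a median of 49442. WT lists held 54210, 36646, 40070, 58164 and 47692 peaks in tumours 7 to 11. The means were 48905 ± 8853 (SD, n = 6) and 47356 ± 9106 (SD, n = 5), a difference far inside the spread (two-sided exact permutation test over the 11 tumours, p = 0.768). At equal length the median width of a peak was 537 to 795 bp in K27M tumours and 787, 679, 544, 949 and 572 bp in WT tumours 7 to 11. The log2 difference was -0.09, with an exact permutation p = 0.615. The length covered by all peaks was 26.7 to 45.2 Mb in K27M tumours and 29.8 to 51.8 Mb in WT tumours (exact permutation p = 0.545 on the log2 scale).

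One property of the lists separated the genotypes more than any of the others, the share of peaks away from H3K4me3. Peaks were called distal where they overlapped no H3K4me3 peak of the 5 tumours in which that mark was also profiled (K27M tumours 2 and 6 and WT tumours 7, 9 and 10). Such peaks are, as background, mostly candidates for enhancers. Distal peaks made up 36.3%, 36.2%, 36.4%, 35.7% and 36.6% of the strongest 35530 peaks in WT tumours 7 to 11. In K27M tumours the share ran from 30.3% to 35.8%, with a median of 31.5%. Only K27M tumour 1, at 35.8%, reached the narrow WT range, and K27M tumour 3, at 34.8%, was the next highest. The means were 32.6% ± 2.22 (SD, n = 6) and 36.2% ± 0.319 (SD, n = 5), a difference of -3.68 percentage points (exact permutation p = 0.0152). After Benjamini-Hochberg adjustment over the 7 list measures the permutation p was 0.106, so the difference did not pass the threshold of 0.05.

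The distal share was small among the strongest peaks and grew as weaker ones were added. Among the strongest 5000 peaks, distal peaks made up 1.18% ± 1.24 (SD, n = 6) for K27M against 1.29% ± 1.25 (SD, n = 5) for WT (exact permutation p = 0.835). Among the strongest 10000 the shares were 3.89% and 4.69% (exact permutation p = 0.476), and among the strongest 20000 they were 15.5% and 18.4% (exact permutation p = 0.0390). With all peaks of each list, at unequal lengths, the difference was -2.76 points, and its unadjusted p was no longer under 0.05 (exact permutation p = 0.498). At the strongest 35530 peaks, leaving out any 1 tumour kept the difference between -4.34 and -3.23 points. With distal defined by the H3K4me3 lists of the 3 WT tumours alone it was -3.27 points, and with those of the 2 K27M tumours alone -4.62 points.

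**Figure D1:**
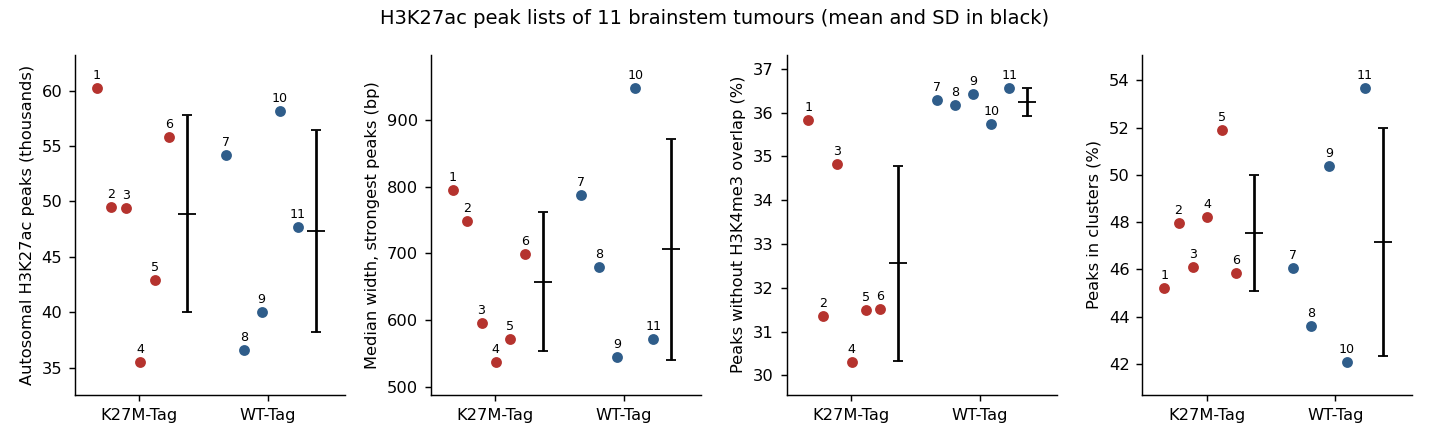
Autosomal peaks, median width of the strongest 35530 peaks, share of those peaks without H3K4me3 overlap and share of them in clusters, by genotype. Each point is 1 numbered tumour and the black bar is the mean with its SD. The 5 WT tumours lie between 35.7% and 36.6% distal peaks, and 5 of the 6 K27M tumours lie below them, while the other 3 measures overlap widely (the vertical axes do not start at 0).

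Clustering of peaks overlapped between genotypes. Peaks at most 10 kb apart were stitched, and the share lying in clusters of 3 or more averaged 47.5% ± 2.44 (SD, n = 6) for the K27M genotype, against 47.2% ± 4.81 (SD, n = 5) for WT (exact permutation p = 0.864). The WT values were 46.1%, 43.6%, 50.4%, 42.1% and 53.7%, and they enclosed the whole K27M range of 45.2% to 51.9%. Among peaks without H3K4me3 alone the clustered share was 4.00 points higher in K27M tumours, which did not pass either (exact permutation p = 0.286). The stitched domain at rank 500 by length, a point near the end of a typical super-enhancer list, was 17.8 to 22.4 kb long in K27M tumours. It was 22.5, 20.1, 19.8, 24.4 and 21.6 kb in WT tumours 7 to 11, a log2 difference of -0.12 (exact permutation p = 0.167).

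The 5 longest stitched domains that all 11 tumours had in common showed no length difference past the test. The first, on chromosome 11 (shared part 87900175 to 87963238, build mm9), was 102 to 121 kb long in K27M tumours, with a median of 103 kb. In WT tumours 7 to 11 it was 105, 102, 63.3, 102 and 102 kb (exact permutation p = 0.149), so that WT tumour 9 alone fell far short of the rest. The next, on chromosome 2 from 166460054 to 166519244, took lengths of 74.6 to 95.2 kb for K27M, against 59.4 to 95.5 kb for WT (exact permutation p = 1). The others lay on chromosome 10 from 79600528 to 79654059 (exact permutation p = 0.156), chromosome 12 from 88121925 to 88174776 (exact permutation p = 0.584) and chromosome 17 from 10674937 to 10727456 (exact permutation p = 0.383), with mean lengths of 54.1 and 55.1 kb, 66.6 and 65.0 kb, and 55.9 and 54.7 kb in K27M and WT tumours.

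Tumours of the same genotype did not share clearly more H3K27ac than tumours of different genotypes. The Jaccard index, the overlap of the strongest 35530 peaks in bases over their union, averaged 54.3% over the 15 K27M pairs, 51.8% over the 10 WT pairs and 51.8% over the 30 mixed pairs. The mean within genotypes exceeded that between them by 1.44 points (exact permutation p = 0.102). Measured as the share of peaks with an overlap, the excess was 1.33 points and passed the test alone, without adjustment over the measures (exact permutation p = 0.0368).

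Peaks of the 11 lists merged into 97498 autosomal regions, most of them seen in few tumours. A peak of only 1 tumour made up 40205 regions (41.2%), and these were narrow, with a median of 261 bp, and 13.0% of them overlapped H3K4me3. At the other end, 14660 regions (15.0%) had a peak in all 11 tumours. They had a median width of 2020 bp, and 90.0% overlapped H3K4me3. Both quantities rose with each further tumour that called a region, through 991 bp and 40.8% for regions of 6 tumours. The width is that of the merged peaks of all calling tumours, so it tends to grow with their number. A wider region also meets an H3K4me3 peak more easily. Private regions were most common in WT tumour 10, with 9499, and K27M tumour 1, with 8273, the 2 longest lists.

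No region passed adjustment for being called more often in either genotype. Of 97498 regions, 14654 were called by a number of tumours that could reach an unadjusted p under 0.05, and Fisher's exact test with Benjamini-Hochberg adjustment called 0 of them (0%). At an unadjusted p under 0.05 it gave 196 regions (1.34%) called more often in K27M and 165 (1.13%) called more often in WT tumours. Full separation was seen at 20 of the 14654 regions (0.136%), where each of the 6 K27M tumours had a peak and none of the WT tumours did. The reverse was seen at 10 of them (0.0682%). Only the 3223 regions called by any 6 tumours could be K27M-only, and only the 3704 called by any 5 could be WT-only. Each separated region had Fisher's exact p = 0.0021645, the smallest this design allows, and an adjusted p of 0.615. At that smallest p, 635 fully separated regions would have been needed for any of them to pass. With 6 against 5 tumours no region could thus pass on its own, and only 20 and 10 were fully separated. Leaving out a tumour removes a condition from full separation, so these counts can hardly fall, and only the size of the rise can vary. The K27M-only count was 33, 50, 27, 40, 45 and 25 without K27M tumours 1 to 6, and 38, 41, 28, 49 and 26 without WT tumours 7 to 11. The WT-only count was 41, 16, 12, 12, 15 and 12 without K27M tumours 1 to 6, and 17, 54, 37, 16 and 29 without WT tumours 7 to 11.

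K27M-only regions were of middling strength and mostly at sites with H3K4me3. Their median width was 1132.5 bp, and their strength was taken as the percentile of the best peak in the tumour's own list, 100 being the strongest peak. The mean percentile of a K27M-only region ran from 14.7 to 64.8 with a median of 40.8, and 17 of the 20 overlapped H3K4me3. WT-only regions had a median width of 1095 bp and a median percentile of 33.9, and 3 of the 10 overlapped H3K4me3. For comparison, 1314 of the 3223 regions called by any 6 tumours and 1348 of the 3704 called by any 5 tumours overlapped H3K4me3. The median percentiles of those regions were 38.0 and 35.2, close to the 40.8 and 33.9 of the separated ones. The H3K4me3 lists themselves were not split the same way. At the 20 K27M-only regions the K27M tumours 2 and 6 had an H3K4me3 peak at 16 and 14, and the WT tumours 7, 9 and 10 at 12, 9 and 12. In 2 of the 20 both K27M and no WT lists held H3K4me3, and in 8 all 5 lists did.

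The strongest K27M-only regions lay side by side on chromosome 2. The first, 115684390 to 115686963, held peaks of 796 to 2431 bp in K27M tumours, with a median of 1855 bp, and the second, 115681510 to 115682715, held peaks of 238 to 958 bp, with a median of 467.5 bp. Their centres were 3.56 kb apart. At the first, the WT tumours 7, 9 and 10 had no H3K27ac peak but did have H3K4me3 peaks of 1678, 850 and 1886 bp, against 2149 and 2182 bp in K27M tumours 2 and 6.

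The region on chromosome 14, 76366683 to 76368038, was even in width among the strongest K27M-only regions, though not in rank, where it ran from percentile 33.5 to 70.4. Its peaks were 887 to 1280 bp wide in the 6 K27M tumours, with a median of 1054.5 bp. It stayed K27M-only with -log10 q of at least 5, with equal numbers of peaks and with peaks covering at least 50% of the region. Leaving out a tumour could not change its separation. Here H3K4me3 followed the same split: WT tumours 7, 9 and 10 had no H3K4me3 peak there, and K27M tumours 2 and 6 had peaks of 333 and 5896 bp. The latter width exceeds the 1356 bp of the region, so it runs beyond it. The next shared region, 76361723 to 76366566, with its centre 3.22 kb away, ended just before the K27M-only region began. The regions may thus be parts of the same domain and are not clearly separate sites. This shared region, which was picked out after its values were seen, was also wider in K27M tumours. Its H3K27ac measured 3406, 3258, 4844, 4379, 4299 and 4364 bp in K27M tumours 1 to 6 and 1920, 2640, 1052, 1838 and 1907 bp in WT tumours 7 to 11, with no overlap (log2 difference 1.23, SE 0.23, limma adjusted p = 0.311).

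Other K27M-only regions among the first 10 by strength lay at 5340072 to 5341436 and 53871553 to 53873432 of chromosome 6 and at 17954363 to 17956185 and 64768449 to 64769107 of chromosome 2. Single ones were found on chromosome 11 at 101798349 to 101798833, on chromosome 1 at 158738139 to 158739684, and at 140060674 to 140061824 of chromosome 5. The peak at chromosome 6, 5340072, was at percentile 4.46 in K27M tumour 1 and between 62.7 and 72.1 in the other 5.

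One WT-only region was far stronger than the rest. It lay on chromosome 13, 40822952 to 40826435, and its peaks were 1213, 3484, 3298, 3298 and 3116 bp wide in WT tumours 7 to 11. They stood at percentiles 72.1, 96.5, 91.7, 87.2 and 86.2 of their lists, while no K27M tumour had a peak there. H3K4me3 was found in both genotypes at this place, with 6309, 3528 and 3509 bp in WT tumours 7, 9 and 10 and 2086 and 584 bp in K27M tumours 2 and 6. The next strongest was on chromosome 3, 88563230 to 88564265, with peaks of 577 to 1017 bp, a mean percentile of 49.3 and no H3K4me3 in any of the 5 lists. Further WT-only regions, with mean percentiles between 21.7 and 38.7, included 144496667 to 144498257 and 128634525 to 128636023 on chromosome 4, 94674936 to 94676808 on chromosome 16 and 26563657 to 26564437 on chromosome 14. The weakest were 27194246 to 27194690 on chromosome 17, 138700873 to 138702026 on chromosome 5, 116008350 to 116008945 on chromosome 3, and 35337510 to 35338044 on chromosome 2.

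Shared regions within 50 kb of the separated ones were looked at after these were known. Of the 20 K27M-only regions 12 had such neighbours, 31 in all, and 24 of these were wider in K27M tumours, with a median log2 width difference of 0.20. By rank 17 of the 31 were higher in K27M tumours, with a median score difference of 0.06. Of the 10 WT-only regions 7 had neighbours, 18 in all, of which 3 were wider in K27M tumours, with a median of -0.26, and 2 were higher by rank, with a median of -0.40. Over all 14660 shared regions 7595 were wider and 7129 higher by rank in K27M tumours, with medians of 0.01 and -0.01. Neighbours of 1 region are not independent of each other: 6 of the 31 lay beside chromosome 2, 17954363, and of the 18, 6 lay beside chromosome 14, 26563657, and 5 beside chromosome 3, 88563230. Some neighbours all but touched the separated region. The WT-only region at chromosome 14, 26563657 to 26564437, lay between shared regions that ended at 26563573 and began at 26564565. A shared region ended at 88563100, just before the WT-only region at chromosome 3, 88563230. Another began at 90314653, just after the K27M-only region at chromosome 2, 90313232 to 90314345. Such pairs may be parts of 1 stretch of H3K27ac.

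Widths of the 14660 regions with a peak in every tumour were compared with limma on the log2 scale, after centring each tumour on its median. None passed the adjusted threshold in either direction (0%), and the lowest adjusted p was 0.188. At an unadjusted p under 0.05, 744 regions (5.08%) were wider and 622 (4.24%) narrower in K27M tumours. The widths of the genotypes did not overlap at 102 regions (0.696%) that were wider and 63 (0.43%) that were narrower. The middle 90% of the fitted log2 differences ran from -0.49 to 0.49, with a median SE of 0.17.

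The smallest p for a wider region belonged to chromosome 2, 17967177 to 17972679. Its peaks measured 3544 to 5284 bp in K27M tumours, with a median of 5165 bp, and 2823, 2521, 2169, 2466 and 2951 bp in WT tumours 7 to 11. Every K27M tumour lay above every WT tumour, at 1.97 times the width after centring (log2 difference 0.98, SE 0.14, limma adjusted p = 0.188, not past the threshold). Its centre was 14.7 kb from that of the K27M-only region at 17954363. H3K4me3 at this place was 5791 and 5657 bp wide in K27M tumours 2 and 6 and 3785, 3027 and 2928 bp in WT tumours 7, 9 and 10, and its groups did not overlap either.

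The other wide regions named by their p were smaller or more variable. At chromosome 13, 72096085 to 72101221, K27M tumours had 2515 to 5137 bp, with a median of 3326.5 bp, and WT tumours 1919, 1855, 1068, 1905 and 1294 bp (log2 difference 1.23, SE 0.19, limma adjusted p = 0.206). At chromosome 1, 154425023 to 154425796, a narrow region, K27M tumours had 389 to 765 bp and WT tumours 281, 309, 214, 375 and 206 bp (log2 difference 1.21, SE 0.18, limma adjusted p = 0.188). The groups did not overlap at either region.

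Among narrower regions, chromosome 3, 88634931 to 88636131, had the smallest p. Its peaks measured 536 to 810 bp in K27M tumours, with a median of 622.5 bp, and 1136, 1014, 979, 1153 and 1028 bp in WT tumours (log2 difference -0.67, SE 0.11, limma adjusted p = 0.291). Its centre lay 71.8 kb from that of the WT-only region at 88563230. Chromosome 13, 103488580 to 103489997, measured 251 to 680 bp in K27M tumours against 1020, 1418, 958, 996 and 796 bp in WT tumours (log2 difference -1.09, SE 0.21, limma adjusted p = 0.311). Chromosome 17, 34160585 to 34165922, measured 2067 to 3732 bp against 4594, 3988, 4121, 5338 and 3211 bp (log2 difference -0.59, SE 0.12, limma adjusted p = 0.311), and here K27M tumour 2 at 3732 bp and WT tumour 11 at 3211 bp overlapped.

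**Figure D2:**
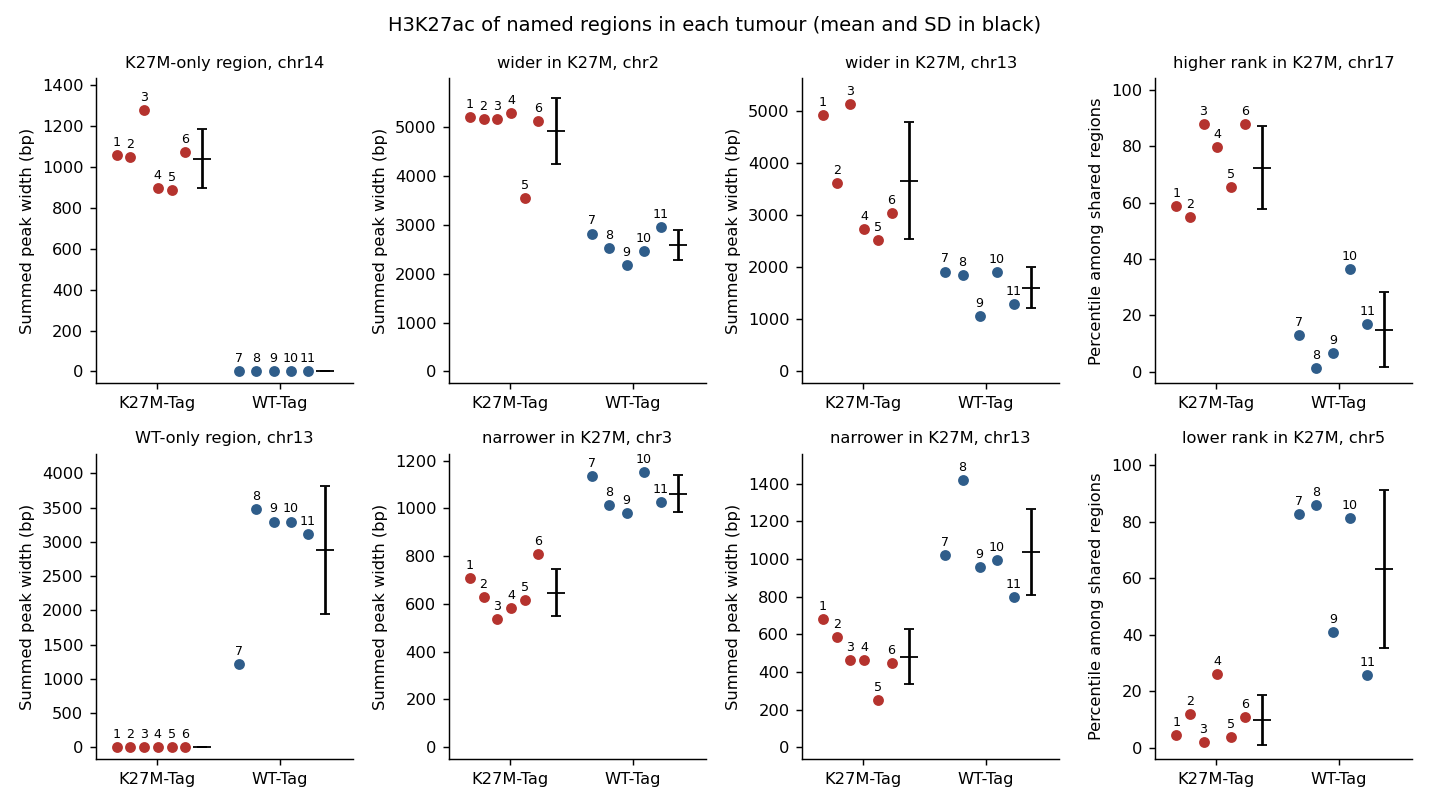
H3K27ac at 8 named regions, as the summed width of its peaks in bp (6 panels) or the percentile among the 14660 shared regions (right-hand panels, 100 being the strongest). Each point is 1 numbered tumour and the black bar is the mean with its SD. K27M and WT tumours do not overlap in any of these panels but that of chromosome 5, where WT tumour 11 at 25.7 lies among the K27M tumours, and of these regions only the one on chromosome 17 passed the adjusted threshold.

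The strength of the same 14660 regions was compared by rank. Within each tumour regions were ranked by their best -log10 q and the ranks turned into normal scores, so that list length played no part, and limma was fitted to the scores. It called 1 region (0.00682%) higher and 0 (0%) lower in K27M tumours. At an unadjusted p under 0.05 there were 793 (5.41%) higher and 625 (4.26%) lower regions. Scores did not overlap at 116 (0.791%) higher and 55 (0.375%) lower regions. Of the 1469 regions without H3K4me3, 34 were higher and 72 lower in K27M tumours at an unadjusted p under 0.05, against 759 higher and 553 lower of the 13191 with H3K4me3. The median score differences were -0.07 and -0.01, and the difference between these classes was not tested.

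The region called was on chromosome 17, 22217600 to 22218662, and it overlapped H3K4me3. It stood at percentile 55.0 to 88.0 among shared regions in K27M tumours, with a median of 72.6, and at 13.0, 1.51, 6.82, 36.3 and 17.0 in WT tumours 7 to 11. No WT tumour reached the lowest K27M tumour. The score difference was 1.87 (SE 0.30, limma adjusted p = 0.0441). Its peaks were also narrower in WT tumours 7, 8 and 9, at 383, 224 and 324 bp, than in the K27M tumours, at 787 to 1063 bp, whereas WT tumours 10 and 11 had 752 and 730 bp. H3K4me3 there was 1146 and 1347 bp wide in K27M tumours 2 and 6 and 1143, 787 and 1218 bp in WT tumours 7, 9 and 10. The score difference stayed between 1.60 and 2.09 when any 1 tumour was left out, but the call did not hold throughout. By limma, the adjusted p was 0.187, 0.118, 0.119 and 0.284 without K27M tumours 3, 4, 5 and 6, and 0.168, 0.123, 0.102 and 0.0543 without WT tumours 7, 8, 9 and 11. With sex as a covariate the difference was 1.99 (limma adjusted p = 0.164), and with ranks by fold enrichment 1.93 (limma adjusted p = 0.00803).

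Other regions named by their rank did not pass. Chromosome 12, 109544200 to 109545344, stood at percentile 22.3 to 46.3 in K27M tumours and 3.72, 0.40, 11.2, 2.95 and 5.12 in WT tumours (limma adjusted p = 0.169). Chromosome 9, 53677316 to 53677916, stood at 23.5 to 63.4 and at 5.04, 5.65, 1.10, 16.6 and 4.60 (limma adjusted p = 0.199). Lower in K27M tumours was chromosome 5, 81983484 to 81986068, at 2.10 to 26.1 against 82.8, 85.9, 40.9, 81.3 and 25.7 in WT tumours 7 to 11. K27M tumour 4, at 26.1, and WT tumour 11, at 25.7, were all but equal there. Its score difference was -1.84 (SE 0.33, limma adjusted p = 0.126), and it passed without WT tumour 11 (limma adjusted p = 0.0350). Chromosome 5, 109987658 to 109988088, stood at 4.83 to 34.9 in K27M tumours and 45.4 to 77.6 in WT tumours (limma adjusted p = 0.199). Chromosome 3, 152057868 to 152061026, among the strongest regions of every tumour, stood at 78.0 to 95.5 and 94.4 to 99.2 (limma adjusted p = 0.329).

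The ranks of whole chromosomes moved together within a tumour, in both genotypes. For each tumour the deviation of a region's score from the median of the other tumours was taken, and its median over each chromosome was computed, a measure added after the ranks were seen. Chromosome 4 had a median deviation of 0.59 in WT tumour 11 and 0.49 in K27M tumour 5, and of -0.41, -0.39 and -0.34 in K27M tumours 4, 3 and 1. On chromosome 18 it ran from -0.51 in K27M tumours 3 and 4 to 0.44 in WT tumour 10, and on chromosome 19 from -0.68 in K27M tumour 3 to 0.38 in WT tumour 8. Chromosome 17 varied least, over a range of 0.20. The number of peaks moved the same way: chromosome 4 held 7.19% of the autosomal peaks of WT tumour 11 and 4.54% of those of K27M tumour 4, and chromosome 19 held 3.46% in WT tumour 8 and 2.07% in K27M tumour 3.

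No chromosome differed between genotypes past the adjusted threshold. The lowest p over the 19 autosomes was that of chromosome 6, with a mean deviation of 0.08 in K27M and -0.09 in WT tumours (exact permutation p = 0.00649, adjusted over 19 chromosomes 0.123). The widest gap between the genotypes was that of chromosome 18, where K27M tumours averaged -0.18 ± 0.32 (SD, n = 6) against 0.17 ± 0.31 (SD, n = 5) for WT (exact permutation p = 0.0996, adjusted 0.576). On chromosome 4 the SDs were 0.36 and 0.33 around means of -0.10 and 0.12 (exact permutation p = 0.297). Ranking regions within each chromosome kept the region of chromosome 17 past the threshold (limma adjusted p = 0.0251) and added no other.

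**Figure D3:**
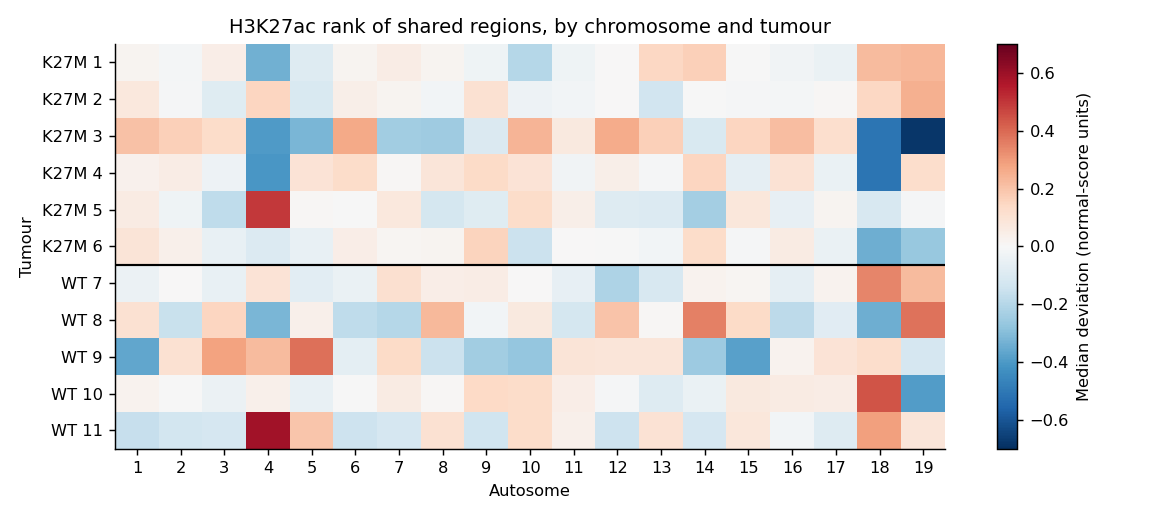
Median deviation of H3K27ac scores (colour, in normal-score units) for each autosome (horizontal axis) and tumour (vertical axis), with K27M tumours above the line and WT tumours below it. Chromosomes 4, 18 and 19 carry the strongest colours, from -0.68 to 0.59, in tumours of both genotypes.

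The H3K4me3 lists of the same tumours showed the same chromosomes shifted. Deviations were taken from the mean of the 5 tumours with both marks, over the H3K27ac regions above and over 19448 H3K4me3 regions shared by those 5. Across the 19 autosomes, the correlation between the marks of 1 tumour was 0.972 and 0.964 in K27M tumours 2 and 6 and 0.963, 0.992 and 0.972 in WT tumours 7, 9 and 10. Between marks of different tumours it ran from -0.586 to 0.587. Deviations from the mean of the same 5 tumours nearly cancel over those tumours, which by itself pulls the correlations between different tumours down. The marks of a tumour share its tissue, and most shared H3K27ac regions lie at H3K4me3 peaks. The series holds a single input DNA sample for each tumour. Whether both marks were called against it is not given in the sources used here. DNA copy number was not analysed here, and its part in these shifts was not tested.

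**Figure D4:**
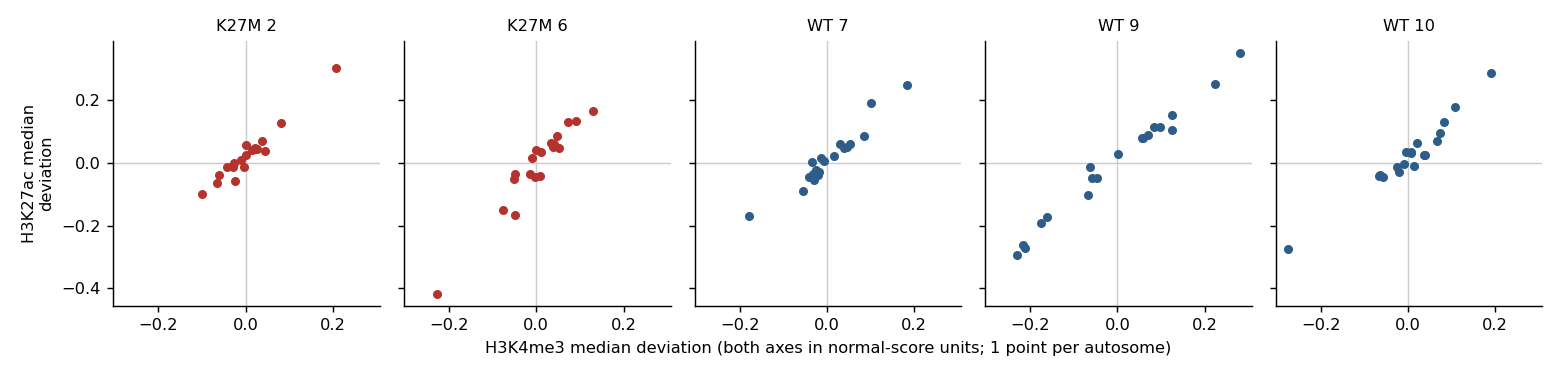
Median deviation of H3K27ac (vertical) against that of H3K4me3 (horizontal) in the 5 tumours with both marks, 1 point per autosome, both in normal-score units. In each tumour the 19 points lie close to a rising line, with a correlation of 0.963 to 0.992.

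Shorter stretches stood apart in single tumours as well. Running medians over 15 neighbouring shared regions were searched for values at least 1 score unit from the tumour's chromosome median. Of the 7 stretches found, 3 lay on chromosome 4 in K27M tumours 1 and 2. In K27M tumour 1 a stretch of 29.3 Mb, 73658061 to 102987670, held 84 shared regions, of which 63 deviated by 1 or more. Their median percentile was 94.9, against 45.0 in the other tumours. The rise was not continuous. Below 80 Mb the few shared regions were not raised, with median deviations of -0.55 at 70 to 75 Mb (6 regions) and -0.09 at 75 to 80 Mb (2 regions). The median was 2.70 at 80 to 85 Mb, 0.32 at 85 to 90 Mb, inside the range of the other tumours but for K27M tumour 2, and 2.62 at 90 to 95 Mb.

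K27M tumour 2 shared parts of this stretch. From 98588710 to 104832682 all 28 of its regions deviated by 1 or more, with a median of 1.81, while K27M tumour 1 had 1.83 over the same regions and the other 9 tumours had -0.48 to 0.57. From 74923310 to 83172089 its median was 1.26. In bins of 5 Mb, K27M tumour 2 stood at 0.10 at 85 to 90 Mb, 1.82 at 90 to 95 Mb and -0.10 at 95 to 100 Mb, a bin that overlaps the start of the later stretch. The other 9 tumours, without K27M tumour 1, reached at most 0.42, 0.44 and 0.68 in these bins. The H3K4me3 list of K27M tumour 2 had median deviations of 2.31 and 1.08 over the same stretches, and those of the other 4 tumours with H3K4me3 lay between -0.37 and 0.55. As a share of each autosomal list, the peaks between 98588710 and 104832682 made up 0.441% in K27M tumour 2 and 0.322% in K27M tumour 1. They made up 0.369% in WT tumour 11 and 0.291% in K27M tumour 5, so the number of peaks did not set K27M tumour 1 apart there. Between 73658061 and 102987670 the share was 1.03% in K27M tumour 1, 0.974% in K27M tumour 2 and 0.502% to 0.834% in the other 9 tumours. Between 74923310 and 83172089 it was 0.202%, 0.273% and 0.0928% to 0.184%.

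**Figure D5:**
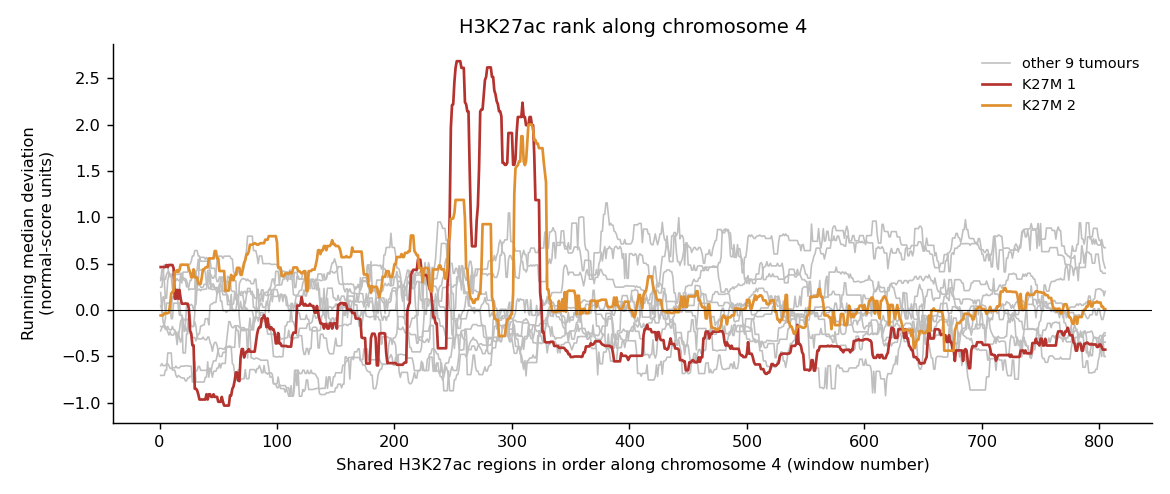
Running median deviation of H3K27ac scores over 15 neighbouring shared regions along chromosome 4, in normal-score units, with regions in order and not to distance. K27M tumours 1 and 2 rise above the other 9 tumours, in grey, over parts of the same stretch, and K27M tumour 1 reaches higher than K27M tumour 2 over its first part.

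The other stretches each belonged to 1 tumour. K27M tumour 2 was higher on chromosome 1 from 172038810 to 174079771, with a median percentile of 96.9 against 58.7 in the others and an H3K4me3 deviation of 1.37. K27M tumour 3 was lower on chromosome 8 from 32258513 to 41598140, with a median percentile of 7.55 against 65.7 over 27 regions and 47 peaks against 74 to 132 in the others. WT tumour 8 was lower over 15 regions of chromosome 17, 34045268 to 34343760, at 41.1 against 80.0, a stretch that holds the narrower region at 34160585. WT tumour 10 was lower over 13 regions of chromosome 13, 63237913 to 63427665, at 3.35 against 27.4. In all, 169 of the 14660 shared regions lay in such a stretch in some tumour.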

How the data were processed

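H3K27ac chromatin immunoprecipitation was done on snap-frozen tumours with Drosophila S2 chromatin added, per the labels' protocols. No spike-in factor was used here, so amounts of the mark were not compared. The submitters' processing notes list bedtools 2.25.0, SICER 1.1, MACS2, BWA 0.7.12, R 2.14.0, SAMtools and Picard without their roles, and build mm9. Per the layout of the deposited lists, the peak caller gave every peak a -log10 q-value, a -log10 p-value, a score and a ratio of enrichment over control (fold). They served to rank or filter the peaks of one and the same list, never to compare lists. H3K4me3 lists served as annotation. All positions are mm9, counted from 1.

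Peaks sharing 1 bp were merged over the 11 lists. Tests were the two-sided exact permutation test over the 462 arrangements of tumours, Fisher's exact test per region, and limma 3.58.1 (eBayes with trend, Benjamini-Hochberg, threshold 0.05) in R 4.3.3, which was tested on simulated data. Other steps used matplotlib 3.10.9, SciPy 1.17.1, pandas 2.3.3 and numpy 2.4.6 under Python 3.11.15. The labels do not say that tumours came from separate animals, so p-values reflect the spread over these samples, which may be partly technical.

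Named were the first 10 fully separated regions per direction by mean list percentile, the 5 longest domains shared by all tumours and, for width and rank, the first 5 regions per direction past the threshold or, with fewer than 5, the 3 with the smallest p. Members, lists and rules were chosen with earlier results of these data known. Chromosome medians, stretches, neighbours, the depth series of distal peaks and the ranking within chromosomes were added after the data were seen. The reference tables at hand were of another build, so genes, exons, introns and UTRs at these positions are not named, planned gene lists and cell type markers were not applied, and no sequences were read.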

Additional observations from a re-analysis of the deposited data

Results flagged for a closer look

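In 104 groups of 4 to 10 tumours, 10 had a highest or lowest tumour far from the others by Dixon's test, and chance flags about 1 in 20 groups. Among K27M tumours, tumour 3 had a chromosome 7 median deviation of -0.25 (others 0.01 to 0.07), and tumour 1 had its peak in the K27M-only region at chromosome 6, 5340072, at percentile 4.46 (others 62.7 to 72.1). K27M tumour 5 had a width of 3544 bp at chromosome 2, 17967177 (others 5121 to 5284 bp), and 63.3 kb in the stitched domain of chromosome 12, 88121925 (others 67.0 to 67.7 kb). K27M tumour 3 had 120.6 kb in that of chromosome 11, 87900175 (others 101.6 to 105.2 kb). Among WT tumours, tumour 9 had a chromosome 15 median deviation of -0.38 (others 0.01 to 0.13) and 63.3 kb in the chromosome 11 domain (others 101.7 to 105.1 kb). WT tumour 11 stood at percentile 94.4 at chromosome 3, 152057868 (others 98.1 to 99.2). WT tumour 10 had 58.1 kb in the stitched domain of chromosome 10, 79600528 (others 53.6 to 54.8 kb), and WT tumour 7 had 56.0 kb in that of chromosome 12, 88121925 (others 66.6 to 67.9 kb).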

How the results depend on the processing

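No paired analysis was possible because the genotypes share no tumour number. Leaving out 1 tumour at a time gave a difference in peaks per tumour of -1129 to 4251, in log2 median width of -0.17 to 0.027 (the latter without WT tumour 10), in the clustered share of -0.89 to 2.01 points, 25 to 50 K27M-only and 12 to 54 WT-only regions, 464 to 1272 regions with an unadjusted Fisher p under 0.05, 0 to 1 regions of higher rank and 0 to 1 of lower rank. Counts of K27M-only and WT-only regions rise almost by construction when a tumour is left out. The difference in peaks per tumour was -406.8 with -log10 q of at least 5. The distal share lost its unadjusted call with all peaks of each list (-2.76 points) and with the strongest 5000 (-0.11) and 10000 (-0.80), the latter pair chosen after seeing the data. Similarity gained one by the share of peaks (1.33 points). K27M-only regions were 7 with -log10 q of at least 5, and WT-only regions were 18 with equal numbers of peaks. One narrower region passed with equal numbers of peaks and 1 with the widest peak in place of the summed width. The rank call was 0 with -log10 q of at least 5, with sex as a covariate, with rank percentiles and by limma without a trend. The score difference of the chromosome 17 region was still 1.99 with sex and 1.87 without a trend, and with -log10 q of at least 5 that region was not among those tested. The causes were not tested. Sequencing depth is unknown, so a region without a peak may lie just under the peak caller's threshold, and its absence is a limit of detection.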
